A study of Homo sapiens with 14 samples.

Results

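RNA-seq profiles of cells treated with RBI2 were compared with those of cells treated with CX-5461 under the label 10 min, with 2 replicate libraries per compound, so that the comparison rests on 4 of the 14 libraries of the series. The libraries were chosen by their sample labels alone. The cells were MDA-MB-231, an established human triple-negative breast cancer line, and each compound was given at 5 µM. CX-5461 blocks RNA polymerase I (Pol I), the enzyme that makes the precursor of the large ribosomal RNAs, and RBI2 is an inhibitor of ribosome biogenesis known by its code name. The other libraries were those of both compounds under the labels 30 and 120 min and 2 controls, which the GEO labels and the methods describe as untreated and the text of the study as given the vehicle DMSO. They entered the pooled estimate of the spread, and the controls are also given beside a result to place it. The time token in the names of the deposited tables differs from the sample label, so each statement on time holds for the label. Neither the labels nor the methods say whether the 2 replicates were separate cultures, so p-values measure the spread between these libraries, which may be technical.

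Poly(A) RNA was sequenced, reads of the ribosomal DNA repeat were removed by the authors, and the values are estimated counts of reads per transcript, summed here per gene. The RBI2 libraries held 16412188 and 16198285 reads, the CX-5461 libraries 18426950 and 17937467, and the controls 16020768 and 14811266, and the 14 libraries ranged from 14112299 to 24849354. Levels are given in CPM, which are counts relative to the library total after TMM scaling. Mitochondrial genes took 8.30% and 8.55% of the reads of the RBI2 libraries, 8.87% and 8.34% of those of CX-5461, and 9.45% and 20.4% in control replicates 1 and 2. VIM, CD44, AXL and CAV1, genes expressed in this line, were abundant in the 4 libraries, and the summed level of the 6 markers of the line ranged from 5675 to 6124 CPM. The estrogen and progesterone receptors that define luminal cells were nearly absent, with ESR1 at 0.236 CPM or less and PGR at 0 in all 14 libraries. Other luminal markers were detected in the 4 libraries, with KRT19 at 61.7 to 73.8 CPM, EPCAM at 10.6 to 14.3 CPM and GATA3 at 3.64 to 3.95 CPM, and the 7 summed to 76.0 and 83.6 CPM with RBI2 and 84.1 and 92.3 CPM with CX-5461. In bulk RNA, a change in every cell cannot be told apart from a change in some of the cells, nor fewer cells of a kind from less RNA per cell.

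Many genes respond within minutes to a signal that reaches a cell. Immediate early genes encode short-lived transcription factors of the FOS, JUN, EGR and NR4A families. They are switched on by MAP kinase, calcium and cyclic AMP signals without new protein synthesis. The inhibitor of DNA binding (ID) genes respond to BMP and TGF-beta ligands through SMAD proteins, whose inhibitory member SMAD7 is itself a target. CCN1 and CCN2 encode secreted matrix proteins and are standard readouts of the co-activator YAP and of serum response factor. Many of these mRNAs turn over quickly.

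The direct comparison called 160 of 15426 genes (1.04% of those tested) with edgeR's quasi-likelihood test at a Benjamini-Hochberg adjusted p under 0.05 and a log2 fold change of 1 or more in either direction. The adjusted p alone was passed by 472 genes (3.06%), of which 344 were higher with RBI2 (2.23%) and 128 lower (0.83%). Of the 160, 98 genes were higher with RBI2 (0.635%) and 62 were lower with RBI2 (0.402%). The libraries of both compounds did not overlap for any of the 160 genes, as was the case for 57.3% of all genes tested. The common coefficient of variation over the 14 libraries was 12.3%. Replicates lay over 2-fold apart for 526 genes with RBI2, 516 with CX-5461 and 1412 in the controls. Without CX-5461 replicate 1, CX-5461 replicate 2 or RBI2 replicate 2 the count was 99, 98 or 95 genes. The 98 higher genes became 57 without CX-5461 replicate 2 and 59 without RBI2 replicate 2. The 62 lower genes became 31 and 41 without CX-5461 replicate 1 and 2, 36 without either RBI2 replicate, and 96 without control replicate 2. With the controls left out of the model it was 232 genes, which held 157 of the 160. DESeq2 called 159 genes, of which 138 were among the 160.

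The genes divided by where the control libraries lay. For 66 of the 98 higher genes both controls were nearer to the mean with RBI2, for 10 they were nearer to the mean with CX-5461, and for 22 they lay on either side. For the 62 lower genes these numbers were 53, 5 and 4. Set against the control, the 98 genes had a median log2 fold change of 0.18 with RBI2 and -1.10 with CX-5461, and the 62 genes had medians of 0.05 with RBI2 and 1.63 with CX-5461. Both comparisons share the control libraries, and the choice of genes by the contrast between compounds fixes in part how far these medians lie apart. Each compound on its own, compared with the control, gave 12 called genes with RBI2 (0.0778%) and 253 with CX-5461 (1.64%). Differences were ranked among called genes with a mean of 5 CPM or more in either compound. The largest in favour of RBI2 were in CCN1, PPP1R10, MIR222HG, ID1 and MYC. Among genes lower with RBI2 they were in NR4A2, ID2, HOXD1 and FOSB, beside a gene model without RBI2 reads that is described further on. Some called genes below this level, such as RAB43P1 and EIF4BP6, had larger fitted values.

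**Figure D1:**
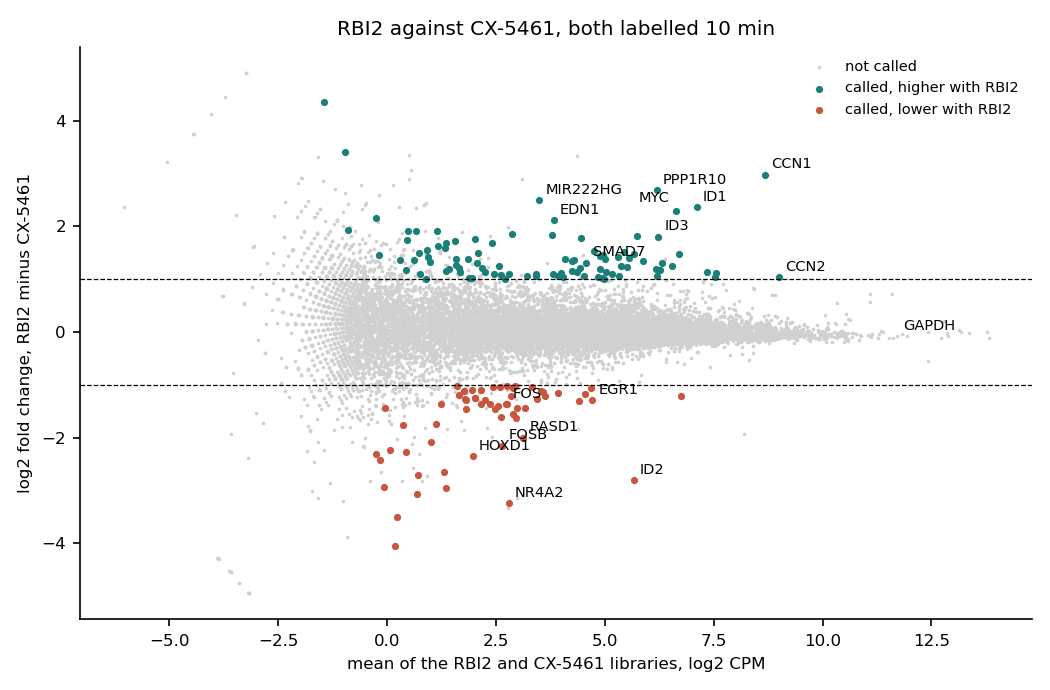
Difference between the compounds for each gene tested. The x axis is the log2 of the mean CPM of the 4 libraries and the y axis the log2 fold change of RBI2 against CX-5461, dashed lines mark the limit of 1 in either direction, and genes beyond 5 (4 called genes among them) or without reads in the 4 libraries are not drawn. Called genes number 98 above the upper line and 62 below the lower line, and the labelled genes farthest from 0 are CCN1 at 2.98 and NR4A2 at -3.25.

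The called genes of BMP and TGF-beta signalling differed in both directions. Of 15 ID and SMAD pathway genes tested, ID1, ID3 and SMAD7 were higher with RBI2, ID2 and BAMBI were lower, and 10 were not called, which is 33.3% called beside 1.04% of all genes. The median log2 fold change of the list was 0.44, beside 0.01 over all genes. ID1 (chr20:31605283-31606515) encodes a dominant-negative partner of basic helix-loop-helix factors and had 235 and 228 CPM in the RBI2 libraries, 47.0 and 42.9 in the CX-5461 libraries and 157 and 101 in the controls. Both RBI2 libraries lay above both controls, and both CX-5461 libraries lay below them. Against the control, its log2 fold change was 0.84 with RBI2 (adjusted p = 0.101) and -1.52 with CX-5461 (adjusted p = 5.67e-04), so that the step from control to RBI2 did not pass the test. The difference between the compounds was 2.37 ± 0.17 (log2, SE, adjusted p = 3.47e-05), a 5.15-fold difference. ID3 (chr1:23557926-23559501), a close relative, had 118 and 115 CPM with RBI2, 35.2 and 31.6 CPM with CX-5461 and 70.7 and 47.9 CPM in the controls, in the same order of groups, and differed by 1.81 ± 0.16 (log2, SE, adjusted p = 1.25e-04). Its values against the control were 0.98 with RBI2 (adjusted p = 0.0350) and -0.83 with CX-5461 (adjusted p = 0.0129).

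ID2 (chr2:8678845-8684461), another member of the same family, took the opposite course. Its levels were 12.7 and 12.6 CPM in the RBI2 libraries, 92.3 and 85.6 in the CX-5461 libraries and 5.28 and 5.91 in the controls, so that both compounds lay above the controls and CX-5461 far above RBI2. The difference was -2.81 ± 0.11 (log2, SE, adjusted p = 2.50e-07), or 7.03-fold. Compared with the control, ID2 had a log2 fold change of 1.18 with RBI2 (adjusted p = 0.00261) and of 3.99 with CX-5461 (adjusted p = 2.80e-08). ID4 had a difference of -1.34 (adjusted p = 0.125) and was not called. Among the regulators of the pathway, SMAD7 (chr18:48919853-48950965), which blocks the receptors, had 35.6 and 32.6 CPM with RBI2, 15.0 and 12.3 CPM with CX-5461 and 9.82 and 8.39 CPM in the controls, and its difference was 1.32 ± 0.12 (log2, SE, adjusted p = 1.33e-04). Compared with the control, SMAD7 had a log2 fold change of 1.90 with RBI2 (adjusted p = 9.24e-05) and of 0.58 with CX-5461 (adjusted p = 0.0227). Its relative SMAD6 differed by 0.82 (adjusted p = 0.0594) and SKIL, a SMAD co-repressor, by 0.73 (adjusted p = 0.0853), which did not pass. BAMBI (chr10:28677510-28682932), a decoy receptor, had 7.83 and 6.98 CPM in the RBI2 libraries, 19.2 and 15.3 in the CX-5461 libraries and 6.21 and 4.23 in the controls and differed by -1.22 ± 0.19 (log2, SE, adjusted p = 0.00495). Without CX-5461 replicate 1 or RBI2 replicate 2 its adjusted p was 0.0767 or 0.0765.

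EDN1 (chr6:12290361-12297194), which encodes the peptide endothelin 1, was measured at 23.7 and 22.6 CPM with RBI2, 5.23 and 5.39 CPM with CX-5461 and 10.8 and 14.6 CPM in the controls and differed by 2.12 ± 0.16 (log2, SE, adjusted p = 4.74e-05). Its order of groups was that of ID1 and ID3, with values against the control of 0.87 with RBI2 (adjusted p = 0.0640) and -1.25 with CX-5461 (adjusted p = 0.00186). SOCS3, an inhibitor of cytokine receptor signalling that was picked out after its values were seen, had a mean of 99.7 ± 1.94 CPM with RBI2, 47.6 ± 2.09 with CX-5461 and 48.6 ± 13.6 in the controls (SD, n = 2) and a difference of 1.07 (adjusted p = 0.00198). Its CX-5461 mean lay beside that of the control.

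**Figure D2:**
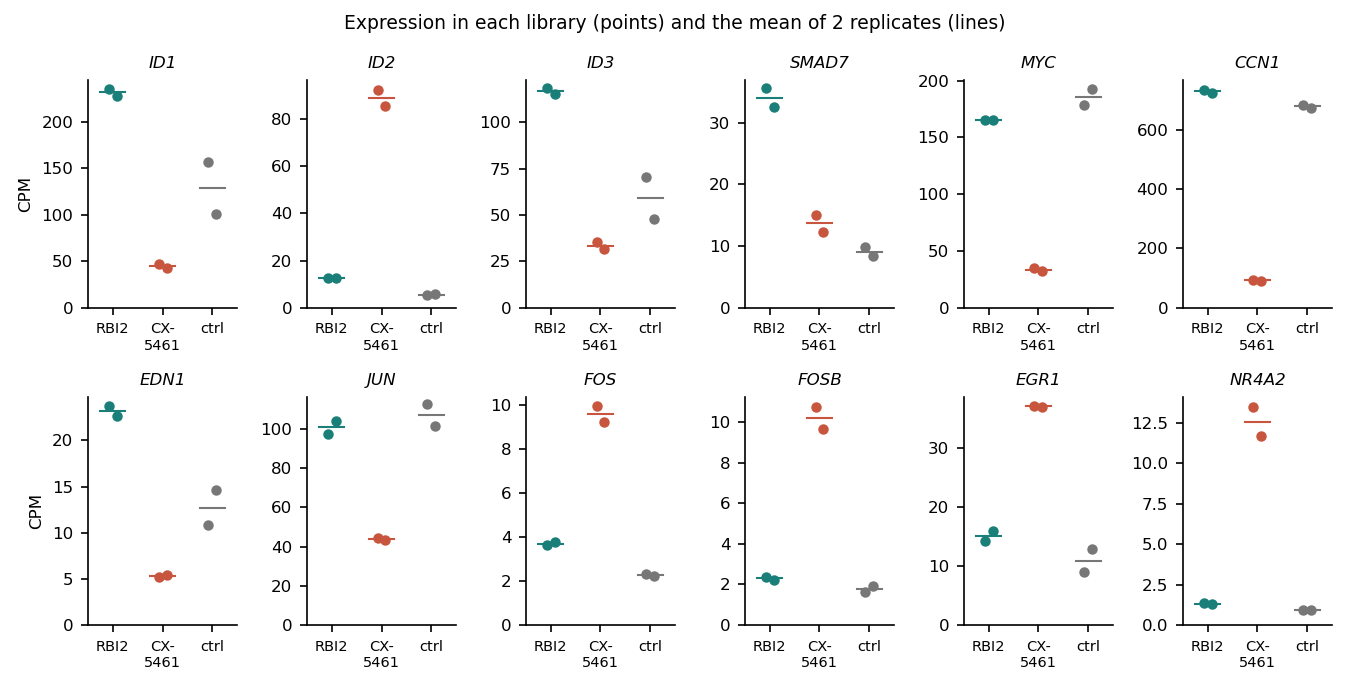
Level of 12 genes in each library. The y axes are linear CPM and start at 0, each point is 1 library, the short lines are means of 2 replicates, and the groups are RBI2 and CX-5461 under the label 10 min and the control. The libraries of the compounds do not overlap for any of the 12 genes, CX-5461 lies lowest for ID1, ID3, MYC, CCN1, EDN1 and JUN, and it lies highest for ID2, FOS, FOSB, EGR1 and NR4A2.

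The called immediate early genes also split by member. Of 21 tested, 8 were lower with RBI2 (NR4A2, FOSB, ARC, NR4A1, FOS, EGR1, BTG2 and ATF3), 3 were higher (IER2, JUN and IER3) and 10 were not called, which is 52.4% called beside 1.04% of all genes, and the median log2 fold change was -0.43. The median was -0.61 without RBI2 replicate 1 and -0.26 without RBI2 replicate 2. With the length offset 4 were lower, and without any 1 library of the comparison 6 or 7 were lower and 2 higher. NR4A2 (chr2:156324437-156342348), an orphan nuclear receptor, had 1.34 and 1.3 CPM in the RBI2 libraries, 13.5 and 11.7 in the CX-5461 libraries and 0.932 and 0.959 in the controls. The RBI2 libraries were close to the controls, and both CX-5461 libraries were well above them. The difference was -3.25 ± 0.38 (log2, SE, adjusted p = 0.00101), or 9.50-fold. NR4A1 (chr12:52022832-52059507), a receptor of the same family, differed by -1.46 ± 0.21 (log2, SE, adjusted p = 0.00323), with 2.91 and 3.03 CPM with RBI2, 7.81 and 8.56 CPM with CX-5461 and 1.49 and 1.44 CPM in the controls. The remaining member, NR4A3, had a difference of -1.83 (adjusted p = 0.0512) and missed the threshold. With an offset for transcript length the adjusted p of NR4A1 was 0.0809.

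The AP-1 subunits did not move as one. FOS (chr14:75278826-75282230) was at 3.64 and 3.77 CPM in the RBI2 libraries, 9.97 and 9.23 in the CX-5461 libraries and 2.30 and 2.24 in the controls, and FOSB (chr19:45467995-45475179) at 2.37 and 2.22 CPM with RBI2, 10.8 and 9.67 CPM with CX-5461 and 1.62 and 1.92 CPM in the controls. For both, RBI2 was lower than CX-5461 without overlap, with log2 fold changes of -1.37 ± 0.14 (log2, SE, adjusted p = 3.50e-04) for FOS and -2.15 ± 0.22 (log2, SE, adjusted p = 3.64e-04) for FOSB. JUN (chr1:58776845-58784048), which encodes the partner of these proteins, had 97.4 and 104 CPM in the RBI2 libraries, 44.5 and 43.5 in the CX-5461 libraries and 113 and 102 in the controls and went the other way, with a difference of 1.20 ± 0.07 (log2, SE, adjusted p = 1.37e-05). Here the controls lay beside RBI2. Compared with the control, JUN had a log2 fold change of -0.09 with RBI2 (adjusted p = 0.568) and of -1.28 with CX-5461 (adjusted p = 6.04e-06). JUNB and JUND had differences of -0.57 (adjusted p = 0.156) and -0.28 (adjusted p = 0.395), and FOSL1 of 0.69 (adjusted p = 0.00968), which passed the test but not the limit on the fold change. ATF3, a stress-induced factor that pairs with JUN proteins, differed by -1.13 ± 0.17 (log2, SE, adjusted p = 0.00439), and lost its call with the length offset and without CX-5461 replicate 1 or RBI2 replicate 1, where its adjusted p was 0.153, 0.0659 and 0.0702.

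EGR1 (chr5:138465479-138469303), a zinc finger factor induced by growth factors, had 14.2 and 16.0 CPM with RBI2, 37.2 and 37.0 CPM with CX-5461 and 9.01 and 12.9 CPM in the controls, and its difference was -1.3 ± 0.15 (log2, SE, adjusted p = 0.00105). The antiproliferative gene BTG2, also a target of p53, differed by -1.28 ± 0.15 (log2, SE, adjusted p = 9.47e-04), with an adjusted p of 0.0558 under the length offset. ARC, which encodes a neuronal cytoskeletal protein, was low, at 0.789 and 1.24 CPM in the RBI2 libraries, 3.99 and 2.78 in the CX-5461 libraries and 0.559 and 0.559 in the controls, and its call was lost without each of the 4 libraries of the comparison in turn (adjusted p from 0.0702 to 0.234). IER3 (chr6:30743199-30744548), an early gene linked to cell survival, had 113 and 103 CPM with RBI2, 47.9 and 47.1 CPM with CX-5461 and 132 and 108 CPM in the controls and differed by 1.18 ± 0.12 (log2, SE, adjusted p = 4.32e-04). IER2, which encodes a nuclear regulator, had 63.8 and 65.6 CPM in the RBI2 libraries, 22.7 and 22.6 in the CX-5461 libraries and 52.4 and 23.3 in the controls. Control replicate 2 lay beside CX-5461 and replicate 1 between the compounds, and without each of the 4 libraries in turn its adjusted p ranged from 0.0751 to 0.145. Of 11 targets of the cyclic AMP response factor CREB, NR4A2, NR4A1 and FOSB were lower with RBI2 and DUSP1 and PDE4B were higher, which is 45.5% called beside 1.04% of all genes. PDE4B, a phosphodiesterase that degrades cyclic AMP, had a difference of 1.18 (adjusted p = 0.0374) and lost its call in 14 of 24 other settings.

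**Figure D3:**
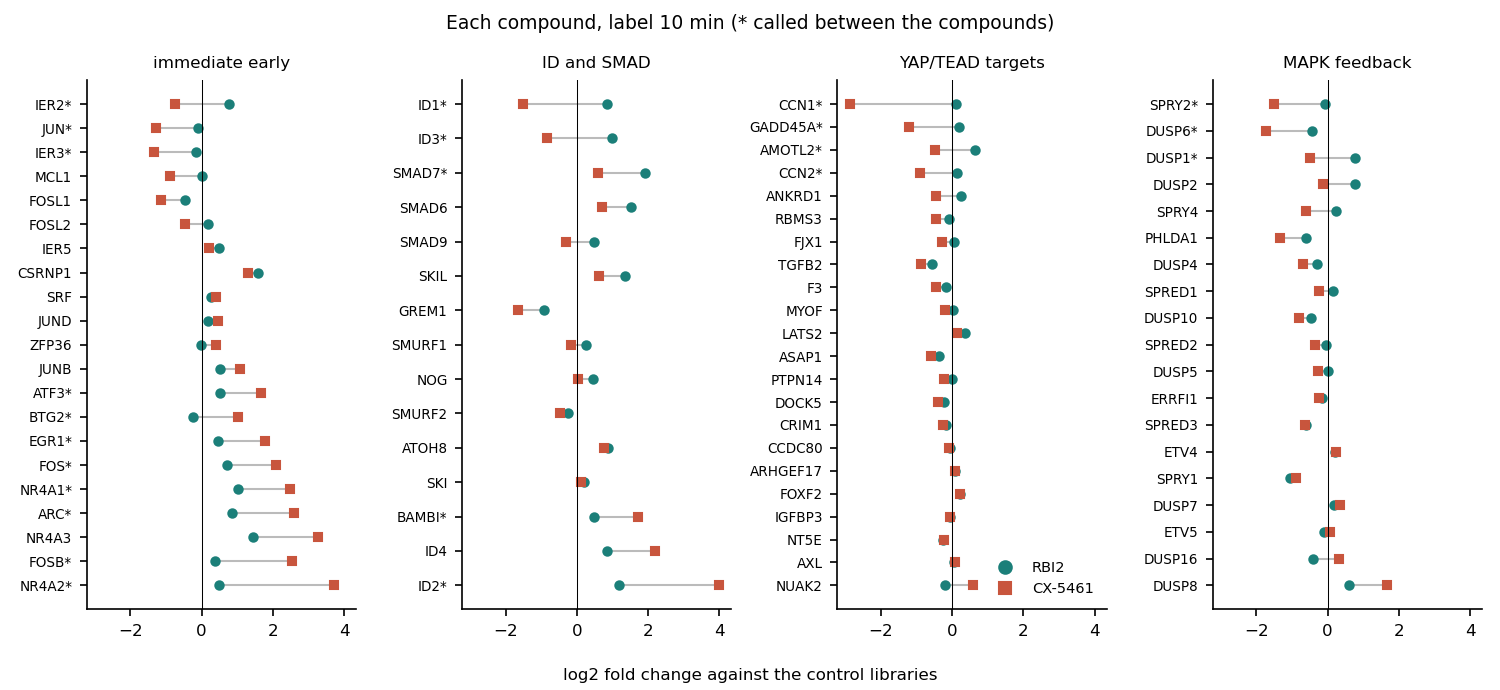
Each compound against the controls for the genes of 4 lists under the label 10 min. The x axis is the log2 fold change against the 2 shared control libraries, circles are RBI2, squares are CX-5461, a line joins the values of a gene, and an asterisk marks a gene called between the compounds. Squares lie farther from 0 than circles for most marked genes, on the right for NR4A2 and ID2 and on the left for CCN1. SMAD7, ID3, AMOTL2, DUSP1 and, by little, IER2 lie farther from 0 with RBI2.

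The called targets of YAP and its DNA-binding partners, the TEAD factors, were higher with RBI2. Of 22 tested, CCN1, GADD45A, AMOTL2 and CCN2 were higher with RBI2, none was lower at both criteria, which is 18.2% called higher beside 0.635% of all genes, and 19 had a positive log2 fold change, beside 51.5% of all genes. CCN1 (chr1:85580761-85584589) had 735 and 723 CPM with RBI2, 94.0 and 90.6 CPM with CX-5461 and 685 and 673 CPM in the controls. Its difference was 2.98 ± 0.06 (log2, SE, adjusted p = 1.39e-09), or 7.89-fold, the largest in favour of RBI2 among the called genes at 5 CPM or more. Compared with the control, CCN1 had a log2 fold change of 0.10 with RBI2 (adjusted p = 0.450) and of -2.88 with CX-5461 (adjusted p = 1.93e-09). CCN2 (chr6:131948176-131951372) had 702 and 676 CPM in the RBI2 libraries, 339 and 329 in the CX-5461 libraries and 598 and 647 in the controls, in the same order, and a smaller difference of 1.04 ± 0.07 (log2, SE, adjusted p = 1.37e-05). AMOTL2, an angiomotin that holds YAP out of the nucleus, differed by 1.12 ± 0.08 (log2, SE, adjusted p = 2.36e-05), with the controls between the compounds. ANKRD1, a further target, passed the test with 0.70 (adjusted p = 2.08e-04) but not the limit, and the kinase gene NUAK2 went the other way with -0.77 (adjusted p = 0.00388). The receptor AXL and the ectonucleotidase NT5E had differences of -0.03 (adjusted p = 0.934) and -0.03 (adjusted p = 0.967). VGLL4, which competes with YAP for TEAD and is outside the list, had a difference of 1.37 (adjusted p = 1.83e-04). Of 14 targets of serum response factor, the same CCN1 and CCN2 were called higher (14.3%, beside 0.635% of all genes). The median of this list was -0.0039 (-0.03 to 0.05 in the 24 other settings), and 8 of its 14 values were negative.

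The called feedback inhibitors of MAP kinase signalling were higher with RBI2. Of 19 tested, SPRY2, DUSP6 and DUSP1 were higher with RBI2 and none was lower at both criteria, which is 15.8% called higher beside 0.635% of all genes, with a median of 0.31 beside 0.01. SPRY2 (chr13:80335976-80341126), a Sprouty protein that dampens receptor signalling to RAS, had 45.1 and 45.6 CPM with RBI2, 16.3 and 16.7 CPM with CX-5461 and 49.0 and 45.5 CPM in the controls. DUSP6 (chr12:89347235-89352501), the phosphatase of ERK, had 112 and 114 CPM in the RBI2 libraries, 47.6 and 43.4 in the CX-5461 libraries and 145 and 159.6 in the controls. For both, CX-5461 lay lowest without overlap, and the differences were 1.46 ± 0.08 (log2, SE, adjusted p = 8.79e-06) and 1.31 ± 0.08 (log2, SE, adjusted p = 1.20e-05). DUSP1 (chr5:172768096-172771195), a nuclear phosphatase of p38, JNK and ERK, had 58.2 and 58.1 CPM with RBI2, 23.3 and 25.4 CPM with CX-5461 and 35.4 and 32.9 CPM in the controls, with the controls between the compounds, and differed by 1.25 ± 0.09 (log2, SE, adjusted p = 2.25e-05). SPRY4, PHLDA1 and DUSP4 passed the test but not the limit, at 0.84 (adjusted p = 0.00338), 0.72 (adjusted p = 2.60e-04) and 0.40 (adjusted p = 0.0215), as did DUSP16 in the other direction, at -0.75 (adjusted p = 0.0406). DUSP8 had the lowest value of the list, -1.09 (adjusted p = 0.179). SPRY1 had a difference of -0.15 (adjusted p = 0.719). Of 11 ligands of the EGF receptor, 0 were called by edgeR and by DESeq2. The adjusted p alone was passed by 1, higher with RBI2, beside 3.06% of all genes. An unadjusted p under 0.05 was found for 1, beside 14.2% of all genes.

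MYC (chr8:127735434-127742951), the growth-promoting transcription factor whose mRNA is short-lived, was measured at 165 and 165 CPM in the RBI2 libraries, 34.9 and 32.2 in the CX-5461 libraries and 178 and 193 in the controls. RBI2 and control libraries were near each other, and CX-5461 lay far below both. The difference was 2.30 ± 0.08 (log2, SE, adjusted p = 1.22e-07), or 4.92-fold. Compared with the control, MYC had a log2 fold change of -0.17 with RBI2 (adjusted p = 0.375) and of -2.46 with CX-5461 (adjusted p = 4.15e-08). No other gene of the 12 tested in the MYC and MAX network was called, which is 8.33% called beside 1.04% of all genes. MXD4 and MXD1, which encode repressors that compete with MYC for MAX, were lower with RBI2 and passed the test but not the limit, at -0.97 (adjusted p = 0.00388) and -0.91 (adjusted p = 0.0189), and MYCL had -1.68 (adjusted p = 0.0861). In 18 of 24 other settings 0 members were called lower, and in the rest 1 was. KLF6 (chr10:3775996-3785281), a zinc finger factor of the KLF family, had 88.4 and 81.8 CPM with RBI2, 35.8 and 31.0 CPM with CX-5461 and 141 and 126 CPM in the controls, in the order control, RBI2, CX-5461, and a difference of 1.35 ± 0.09 (log2, SE, adjusted p = 2.36e-05). KLF9, of the same family, had -1.36 (adjusted p = 0.0378) and lost its call in 11 of 24 other settings. GADD45A (chr1:67685201-67688334), induced by DNA damage and other stress, had 71.3 and 65.9 CPM in the RBI2 libraries, 25.9 and 26.1 in the CX-5461 libraries and 62.6 and 57.0 in the controls and a difference of 1.40 ± 0.08 (log2, SE, adjusted p = 1.20e-05). Of 24 targets of p53, GADD45A and BTG2 were called, in opposite directions, which is 8.33% called beside 1.04% of all genes. The adjusted p alone was passed by 6 (3 higher and 3 lower), beside 3.06% of all genes. An unadjusted p under 0.05 was found for 12, beside 14.2% of all genes. The median of the list was -0.09, which was -0.02 without CX-5461 replicate 2.

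PPP1R10 (chr6:30600413-30618612) encodes PNUTS, a nuclear subunit that directs protein phosphatase 1 to RNA polymerase II and takes part in transcription termination. Its level was 123 and 131 CPM with RBI2, 19.9 and 19.6 CPM with CX-5461 and 91.5 and 107 CPM in the controls, and its difference was 2.68 ± 0.10 (log2, SE, adjusted p = 2.50e-07), or 6.43-fold. Compared with the control, PPP1R10 had a log2 fold change of 0.36 with RBI2 (adjusted p = 0.202) and of -2.33 with CX-5461 (adjusted p = 9.32e-07). OSGIN1 (chr16:83931311-83966332), a stress gene induced by the factor NRF2, had 84.2 and 83.7 CPM in the RBI2 libraries, 22.4 and 24.9 in the CX-5461 libraries and 75.1 and 44.4 in the controls and differed by 1.83 ± 0.20 (log2, SE, adjusted p = 5.29e-04). It shares exonic sequence with MLYCD on its strand, so Salmon's division of reads between them makes the value less certain. The non-coding gene ENSG00000290862 (chr3:185959943-185980872), which overlaps NMRAL2P, had 10.9 and 12.1 CPM with RBI2, 3.29 and 3.0 CPM with CX-5461 and 9.20 and 9.43 CPM in the controls and differed by 1.87 ± 0.13 (log2, SE, adjusted p = 2.84e-05). TAF1D (chr11:93729948-93784391), a subunit of the Pol I initiation factor SL1 and the host of several small nucleolar RNAs (snoRNAs), had 251 and 248 CPM in the RBI2 libraries, 123 and 119 in the CX-5461 libraries and 238 and 256 in the controls and a difference of 1.05 ± 0.06 (log2, SE, adjusted p = 1.37e-05), which became 0.82 with the length offset.

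Some host transcripts of microRNAs (miRNAs) were higher with RBI2. Of 8 in the list, MIR222HG and MIR17HG were called higher (25.0%, beside 0.635% of all genes), with a median of 0.61 beside 0.01, and MIR23AHG, outside the list, was called too. The reads are those of the long host RNAs, and the mature miRNAs were not measured in these libraries. MIR222HG (chrX:45745210-45770274) had 19.4 and 19.1 CPM with RBI2, 3.18 and 3.61 CPM with CX-5461 and 22.8 and 34.8 CPM in the controls and a difference of 2.50 ± 0.19 (log2, SE, adjusted p = 4.75e-05). MIR17HG (chr13:91347686-91397592), the host of the oncogenic miR-17-92 cluster, had 2.43 and 3.21 CPM in the RBI2 libraries, 1.02 and 0.890 in the CX-5461 libraries and 4.85 and 4.47 in the controls and differed by 1.55 ± 0.22 (log2, SE, adjusted p = 0.00351), with an adjusted p of 0.0533 without CX-5461 replicate 2. MIR23AHG (chr19:13823880-13842928) had 31.1 and 37.2 CPM with RBI2, 9.43 and 10.5 CPM with CX-5461 and 25.1 and 12.2 CPM in the controls and differed by 1.78 ± 0.25 (log2, SE, adjusted p = 0.00341), and its adjusted p was 0.0702 and 0.0535 without CX-5461 replicate 1 and 2. In all of them CX-5461 lay below both controls and below RBI2. The mature sequences that lie inside these hosts in RefSeq (GRCh38.p14) are shown for the arms in wide use, to name what each locus encodes, with the seed (bases 2 to 8) in capitals. Within MIR222HG and within MIR17HG, pairs of members share a seed.
hsa-miR-221-3p (chrX:45746180-45746202, minus strand): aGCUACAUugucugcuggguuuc
hsa-miR-222-3p (chrX:45747036-45747056, minus strand): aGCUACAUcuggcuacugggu
hsa-miR-17-5p (chr13:91350618-91350640, plus strand): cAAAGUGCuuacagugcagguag
hsa-miR-20a-5p (chr13:91351072-91351094, plus strand): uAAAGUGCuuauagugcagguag
hsa-miR-19a-3p (chr13:91350939-91350961, plus strand): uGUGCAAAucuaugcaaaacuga
hsa-miR-19b-3p (chr13:91351245-91351267, plus strand): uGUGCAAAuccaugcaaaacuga
hsa-miR-92a-3p (chr13:91351361-91351382, plus strand): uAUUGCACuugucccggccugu
hsa-miR-23a-3p (chr19:13836595-13836615, minus strand): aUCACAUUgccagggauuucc
hsa-miR-27a-3p (chr19:13836447-13836467, minus strand): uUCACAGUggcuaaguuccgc
hsa-miR-24-3p (chr19:13836289-13836310, minus strand): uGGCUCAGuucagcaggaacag

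Hosts of snoRNAs named SNHG were examined after their values had been seen. Of 28 tested, 6 were higher with RBI2 (SNHG3, SNHG4, SNHG12, SNHG15, SNHG17 and SNHG26), none was lower, and the median was 0.29, beside 0.635% called higher of all genes. In the 24 other settings 4 to 6 were higher, with 4 under the length offset or without RBI2 replicate 1. SNHG4 had a mean of 74.9 ± 12.7 CPM with RBI2, 26.7 ± 0.162 with CX-5461 and 75.7 ± 5.96 in the controls (SD, n = 2), and SNHG3 of 57.1 ± 2.04 CPM with RBI2, 21.3 ± 2.55 with CX-5461 and 64.6 ± 1.91 in the controls (SD, n = 2). Their differences were 1.49 (adjusted p = 6.44e-05) and 1.42 (adjusted p = 1.37e-05). In the annotation, exons of SNHG3, SNHG12, SNHG15 and SNHG17 overlap snoRNA genes on their strand, SNHG3 also overlaps RCC1 and SNHG4 overlaps MATR3, and no overlap was found for SNHG26.

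The called zinc finger genes with a ZNF number, a family in which many members repress transposable elements, were higher with RBI2. Of 427 tested, 21 were higher with RBI2 and none was lower, which is 4.92% called beside 1.04% of all genes. The median log2 fold change was 0.30, and 330 of the 427 values were positive. On chromosome 19, where many of them lie in clusters, 12 of 217 were called with a median of 0.43, and elsewhere 9 of 210 with a median of 0.18. ZNF792 (chr19:34956354-34964229) had 6.01 and 6.61 CPM in the RBI2 libraries, 1.51 and 2.22 in the CX-5461 libraries and 6.59 and 7.91 in the controls and a difference of 1.76 ± 0.21 (log2, SE, adjusted p = 0.00101). The controls lay beside RBI2. The differences of the called members ran from ZNF658 with 2.17 (adjusted p = 0.00982) to ZNF70 with 1.02 (adjusted p = 0.0249). Clustered ZNF genes resemble each other, and reads shared by paralogs are divided by Salmon. The count was 11 and 8 without CX-5461 replicate 1 and 2, 13 and 9 without RBI2 replicate 1 and 2, 12 with the offset for transcript length and at most 30 (no filter on low counts), while the median stayed between 0.28 and 0.30 in all 24 settings. The gene model ENSG00000269825, a protein-coding entry that overlaps ZNF83 (chr19:52650447-52690496), had 13.8 and 29.5 CPM with RBI2, 4.10 and 8.06 CPM with CX-5461 and 7.15 and 13.0 CPM in the controls. Its replicates lay far apart in both groups, and its call was lost in 12 of 24 other settings.

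Among the genes lower with RBI2 was HOXD1 (chr2:176188668-176190907), a homeobox factor, with 1.40 and 1.17 CPM in the RBI2 libraries, 6.79 and 6.34 in the CX-5461 libraries and 0.932 and 0.479 in the controls and a difference of -2.35 ± 0.36 (log2, SE, adjusted p = 0.00507). Its adjusted p was 0.0567, 0.0534 and 0.0836 without CX-5461 replicate 1, RBI2 replicate 1 and RBI2 replicate 2. NR2F1, a nuclear receptor, had 2.0 and 1.73 CPM with RBI2, 5.39 and 4.89 CPM with CX-5461 and 1.99 and 0.799 CPM in the controls, and lost its call in 7 of 24 other settings. Of 13 genes of the HES, HEY, SOX and related list, the Notch targets HEY1 and NRARP were lower with RBI2 and 11 were not called, which is 15.4% called lower beside 0.402% of all genes. NRARP (chr9:137299631-137302271), which encodes a feedback inhibitor of Notch, had 2.98 and 3.03 CPM in the RBI2 libraries, 9.86 and 8.56 in the CX-5461 libraries and 3.17 and 2.48 in the controls and a difference of -1.62 ± 0.20 (log2, SE, adjusted p = 0.00154). HEY1 was near the lower end of the measured range, at 0.425 and 0.494 CPM with RBI2, 2.32 and 2.17 CPM with CX-5461 and 0.249 and 0.240 CPM in the controls, with -2.27 ± 0.43 (log2, SE, adjusted p = 0.0177), and lost its call in 7 of 24 other settings. HES1, the best-known Notch target, differed by 0.28 (adjusted p = 0.257), and BHLHE40, a hypoxia-inducible repressor, by 0.99 (adjusted p = 3.50e-04), in the other direction.

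In further genes both CX-5461 libraries lay above the controls and RBI2. RASD1 (chr17:17494437-17496395), a RAS-like protein induced by glucocorticoids, had 3.16 and 3.83 CPM in the RBI2 libraries, 14.3 and 13.7 in the CX-5461 libraries and 2.67 and 2.16 in the controls and a difference of -2.0 ± 0.21 (log2, SE, adjusted p = 5.27e-04). TNFSF9 (chr19:6531026-6535924), the ligand of the co-stimulatory receptor 4-1BB on T cells, had 3.76 and 3.77 CPM with RBI2, 11.6 and 10.4 CPM with CX-5461 and 2.11 and 1.36 CPM in the controls and a difference of -1.55 ± 0.20 (log2, SE, adjusted p = 0.00187). RBI2 also lay above both controls in its case. TENT5A (chr6:81491439-81752774), a cytoplasmic poly(A) polymerase, had 3.89 and 3.64 CPM in the RBI2 libraries, 11.9 and 11.5 in the CX-5461 libraries and 4.72 and 6.63 in the controls, and its difference was -1.63 ± 0.19 (log2, SE, adjusted p = 7.79e-04). GCH1 (chr14:54842008-54902826), the first enzyme of tetrahydrobiopterin synthesis, had 4.25 and 5.37 CPM with RBI2, 13.0 and 13.2 CPM with CX-5461 and 6.09 and 4.87 CPM in the controls and differed by -1.44 ± 0.16 (log2, SE, adjusted p = 7.10e-04). Among genes singled out after their values were seen, the growth factor PDGFB had a mean of 0.123 ± 0.0881 CPM with RBI2, 2.16 ± 0.611 with CX-5461 and 0.133 ± 0.0754 in the controls (SD, n = 2), the factor CEBPA of 0.430 ± 0.265 CPM with RBI2, 2.84 ± 0.479 with CX-5461 and 0.457 ± 0.0313 in the controls (SD, n = 2) and the factor SNAI1, which represses E-cadherin, of 14.2 ± 0.736 CPM with RBI2, 32.2 ± 0.840 with CX-5461 and 7.72 ± 1.65 in the controls (SD, n = 2). Their differences were -4.06 (adjusted p = 0.00351), -2.71 (adjusted p = 0.0118) and -1.18 (adjusted p = 0.00111). Components of Wnt signalling, listed after the values were seen, had 5 called of 21, beside 1.04% of all genes. The 4 that were lower became 2 with the length offset and without any 1 of the 4 libraries. AXIN2, FZD8, FRAT1 and FRAT2 were lower with RBI2, by -2.66 (adjusted p = 0.0103), -2.96 (adjusted p = 0.00139), -2.94 (adjusted p = 0.0421) and -1.44 (adjusted p = 2.60e-04), and DKK1, a secreted inhibitor of the pathway, was higher, at 154 ± 0.0721 CPM with RBI2, 55.5 ± 0.0197 with CX-5461 and 201 ± 30.4 in the controls (SD, n = 2), with 1.47 (adjusted p = 1.37e-05).

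Several calls rest on a group without reads. ENSG00000262526 (chr17:7240427-7244635), a protein-coding gene model that overlaps CTDNEP1 and GABARAP on their strand, had 0 reads with RBI2 and in the controls and 840 with CX-5461, in both libraries. With a floor of 3 counts over the RBI2 libraries, it was at least 250.2-fold higher with CX-5461. Under the label 120 min the model had means of 22.3 CPM with RBI2 and 25.3 CPM with CX-5461, and under the label 30 min it had 0 reads with both. CTDNEP1 and GABARAP themselves differed by -0.04 (adjusted p = 0.885) and 0.13 (adjusted p = 0.663). EFNA2, an ephrin, was at least 8.34-fold lower with RBI2, with 28 reads with CX-5461 and 0 with RBI2. The pseudogenes RAB43P1 and EIF4BP6 were at least 18.3-fold and 13.8-fold higher with RBI2, with 49 and 37 reads against 0.

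**Figure D4:**
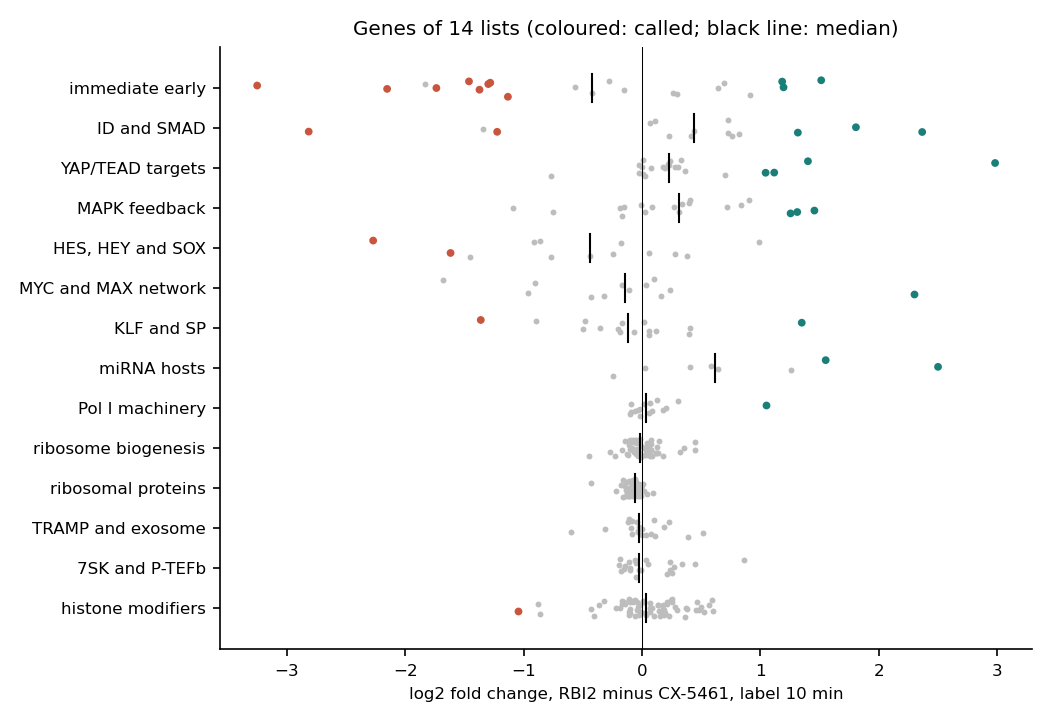
Difference between the compounds for the genes of 14 lists under the label 10 min. The x axis is the log2 fold change of RBI2 against CX-5461, each point is a gene, coloured points are called, and the black line is the median of the list. Called genes lie on both sides for the immediate early list (8 and 3) and for the ID and SMAD list (2 and 3), while the ribosomal protein genes stay between -0.43 and 0.09.

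Genes of the machinery that makes ribosomes held 1 call. Of 16 genes of the Pol I machinery, TAF1D alone was called (6.25%, beside 1.04% of all genes), and the other 15 lay between -0.10 and 0.30. Of 61 genes of ribosome biogenesis, edgeR and DESeq2 called 0, 4 had an unadjusted p under 0.05, as had 14.2% of all genes tested, and the values ranged from -0.45 to 0.45 with a median of -0.01 (-0.04 without RBI2 replicate 1). Of 79 genes of cytosolic ribosomal proteins, both tools called 0 and 0 had an unadjusted p under 0.05, with a median of -0.06 (-0.11 without CX-5461 replicate 2) and 4 positive values. Of 21 genes of the nuclear exosome and its TRAMP cofactors, which degrade polyadenylated nuclear RNA, both tools called 0 and 4 had an unadjusted p under 0.05, in a range from -0.60 to 0.51. The adjusted p alone was passed by 1 gene of ribosome biogenesis and 1 of the exosome list, both higher with RBI2. It was passed by 0 of the ribosomal protein genes, beside 3.06% of all genes. Of 8 genes of poly(A)-binding proteins 0 were called and 1 had an unadjusted p under 0.05. PABPC1, the main cytoplasmic member, had a difference of -0.19 (adjusted p = 0.663) with a 95% interval from -0.52 to 0.14, which was 0.21 with the length offset. GAPDH differed by -0.07 (adjusted p = 0.805), with an interval from -0.26 to 0.12, and ATXN2, an RNA-binding protein, by 0.09 (adjusted p = 0.923), with an interval from -0.41 to 0.59. The study names PABPC1 and ATXN2 as downregulated under every RBI2 label, in comparisons with the control and not with CX-5461. In the edgeR fit here, RBI2 against the control gave -0.51 (adjusted p = 0.238) for PABPC1 and -0.66 (adjusted p = 0.291) for ATXN2. For CX-5461 these values were -0.32 (adjusted p = 0.233) and -0.75 (adjusted p = 0.0898).

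Other lists held few or no calls. By edgeR and DESeq2 0 genes were called among 23 targets of NF-kB (7 with an unadjusted p under 0.05), 16 of the integrated stress response (5), 16 heat shock genes (4), 16 of the BCL2 family and other survival genes (3), 23 of the 7SK complex and P-TEFb (3), 18 of CLK and SR splicing factors (9), 12 circadian genes (2), 8 topoisomerases (0), 15 mitochondrial genes (1) and 23 cell cycle genes (12), beside the 14.2% of all genes. The adjusted p alone was passed by 5 of the cell cycle genes, 4 of the splicing factors, 4 of the NF-kB targets, 2 of the integrated stress response, 2 heat shock genes and 1 survival gene, and by 0 of the other lists named here, beside 3.06% of all genes. KDM7A, a histone demethylase, was the only call among 69 histone modifiers, at -1.05 (adjusted p = 0.0353). That is 1.45% called, near the 1.04% of all genes, and in 9 of 24 other settings 0 of them were called. H4C3 was the only call among 24 replication-dependent histones (4.17%, beside 1.04% of all genes), at -1.43 (adjusted p = 0.0477). In 17 of 24 other settings, DESeq2 among them, 0 members were called lower. These histone mRNAs mostly lack a poly(A) tail, and their level in poly(A) libraries is not a measure of all histone mRNA.

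A larger share of short genes than of long genes was called. Of 2304 protein-coding genes that span under 10 kb, 31 were higher with RBI2 and 36 lower (1.35% and 1.56%), and of 10301 longer ones 40 were higher and 21 lower (0.388% and 0.204%). Of 2184 lncRNA genes, 22 were higher and 3 lower (1.01% and 0.137%). Of 4019 genes whose most abundant transcript has 2 to 4 exons, 57 were higher and 28 lower (1.42% and 0.697%), beside 0.635% and 0.402% of all genes. GC content was averaged over the transcripts of each gene, weighted by their reads. Its median was 47.4% for the higher genes, 57.6% for the lower genes and 48.0% for all genes tested. The share of reads in lncRNA transcripts was 1.24% and 1.32% in the RBI2 libraries, 1.12% and 1.03% in those of CX-5461 and 1.26% and 1.11% in the controls. Retained-intron transcripts took 4.39% and 4.55% in the RBI2 libraries, 4.15% and 4.12% in those of CX-5461, and 4.40% and 3.96% in the controls. Within each measure the compounds did not overlap, and the controls ranged across the gap. No test was run on these shares, because an exact permutation test cannot reach the threshold with 2 libraries against 2.

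Promoters of the called genes were searched in RefSeq windows of 300 bases (250 before to 50 after the start site, GRCh38.p14), which were at hand for 66 higher genes, 39 lower genes and 10954 of all genes tested. The letters were searched on both strands. The palindrome GGCGCC, part of a SMAD-binding site, was found for 10 of the higher genes (15.2%), 20 of the lower genes (51.3%) and 31.3% of all. Their windows also differed in base composition, with a median GC content of 61.8%, 70.0% and 66.0%. GGAATG, bound by TEAD factors, was found for 16.7% of the higher genes, CCN2, AMOTL2 and ID1 among them, for 2.56% of the lower and for 10.6% of all. The cyclic AMP response element TGACGTCA was found in 4.55%, 2.56% and 3.35%, TGACTCA (AP-1) in 1.52%, 0% and 3.28%, and the E-box CACGTG in 6.06%, 7.69% and 9.86%. The CArG box bound by serum response factor was found in 1.52%, 7.69% and 1.00%, with EGR1, FAM53C and NR2F1 the 3 lower genes that hold it. None of these motifs contains another, and a match is a description, not a binding site. The following stretches show the matches, in capitals, for the 4 called genes with the largest difference in each direction among the genes of the naming rule given with the processing (at 5 CPM or more, or called in a list of at most 25 genes) that hold one before the start site. Genes named after their values were seen, some of which differ by more, are not shown. OSGIN1, MIR17HG, KLF6 and DUSP1 were higher with RBI2, and HOXD1, RASD1, TENT5A and NRARP were lower.
OSGIN1 (chr16:83953113-83953179, plus strand): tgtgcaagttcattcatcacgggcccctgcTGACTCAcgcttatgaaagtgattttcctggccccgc
MIR17HG (chr13:91347482-91347547, plus strand): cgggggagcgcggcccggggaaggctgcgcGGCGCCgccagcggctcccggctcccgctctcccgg
KLF6 (chr10:3785271-3785336, minus strand): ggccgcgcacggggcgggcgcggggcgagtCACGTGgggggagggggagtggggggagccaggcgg
DUSP1 (chr5:172771268-172771373, minus strand): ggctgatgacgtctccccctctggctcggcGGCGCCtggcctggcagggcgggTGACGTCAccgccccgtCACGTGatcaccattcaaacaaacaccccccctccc
HOXD1 (chr2:176188585-176188650, plus strand): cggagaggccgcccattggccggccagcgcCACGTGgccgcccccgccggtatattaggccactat
RASD1 (chr17:17496396-17496437, minus strand): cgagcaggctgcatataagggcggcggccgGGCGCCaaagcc
TENT5A (chr6:81752747-81752812, minus strand): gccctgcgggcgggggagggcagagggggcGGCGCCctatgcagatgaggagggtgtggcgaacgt
NRARP (chr9:137302272-137302326, minus strand): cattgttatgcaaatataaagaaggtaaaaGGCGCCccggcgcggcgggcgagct

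Few of the 160 genes were called under the other labels. Under the label 30 min, 2 genes were called (0.013%), H4C3 with -2.87, which was also among the 160 in the same direction, and the lncRNA ENSG00000258964 with -10.14, a fitted value that is no bound. Under the label 120 min 258 genes were called (1.67%), of which 11 were among the 160 in the same direction and KCNQ1OT1, an imprinted antisense lncRNA, in the opposite one (-1.3 against 1.09). ID2, MIR17HG, MIR23AHG and ZNF460 were among the 11. The median over the 98 higher genes was 1.34 under the label 10 min, 0.11 under 30 min and 0.31 under 120 min, and over the 62 lower genes -1.37, 0.02 and -0.13. These genes were chosen under the label 10 min, so their own medians there are a description. An interaction term tested whether the compound difference itself changed with the label. It passed against 30 min for 122 genes (0.791%), against 120 min for 651 (4.22%) and against both for 101 (0.655%). Of the 98 higher genes, 49, 55 and 45 passed, and of the 62 lower genes 21, 33 and 15. The values under the label 10 min that chose these genes also enter the interaction, so these counts are a description. CCN1, PPP1R10, MYC, ID1, ID3, SPRY2 and DUSP6 were among those that passed against both, and so did FOSB, EGR1, NRARP and ID2 among the lower genes. The count of 122 was 47 to 79 without any 1 library of the labels 10 or 30 min, and 257 or 267 without control replicate 1 or 2. The count of 651 was 66 to 108 without any 1 library of the labels 10 or 120 min except CX-5461 120 min replicate 1 (325), 200 or 230 without RBI2 30 min replicate 1 or 2, and 2788 or 2701 without control replicate 1 or 2. With the replicate number as a block the count of 651 became 343.

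**Figure D5:**
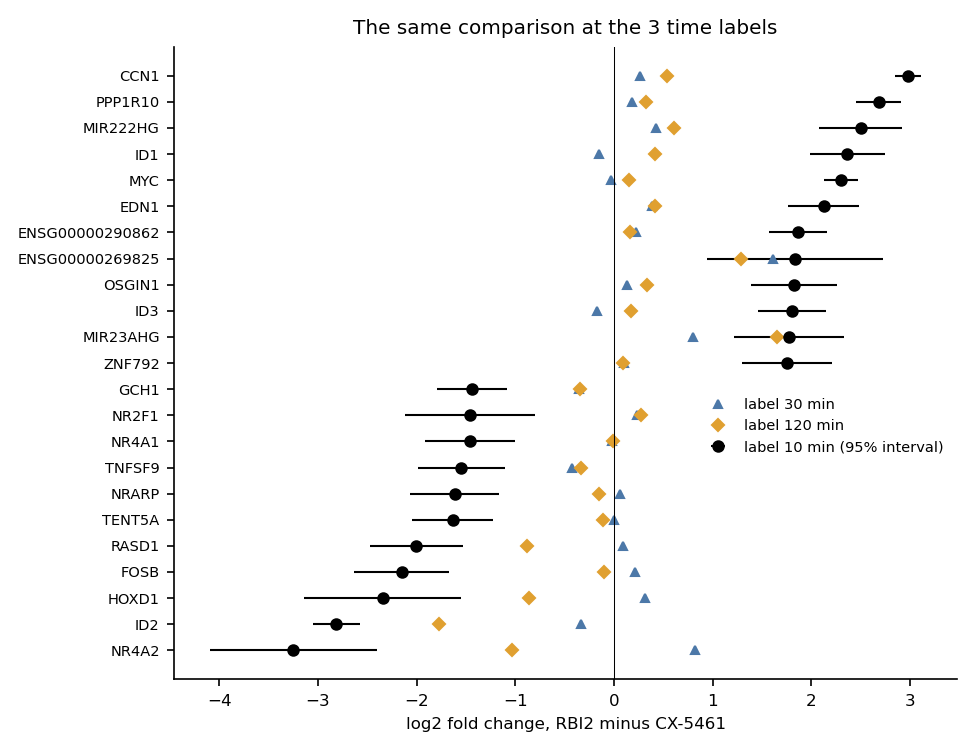
The compound difference of the genes with the largest changes under the 3 time labels. The x axis is the log2 fold change of RBI2 against CX-5461, black circles with 95% intervals are the label 10 min by which the genes were chosen, triangles are 30 min and diamonds are 120 min, and ENSG00000262526 is left out because its RBI2 libraries held 0 reads. Triangles and diamonds lie nearer to 0 than the circles for most genes, while the diamond of MIR23AHG (1.66) stays beside its circle (1.78) and that of ID2 lies at -1.78.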

How the data were processed

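Poly(A) RNA was sequenced from MDA-MB-231 cells in 14 libraries of 7 groups, 2 each, grouped by the sample labels. The authors removed reads that aligned to the ribosomal DNA repeat and quantified the others with Salmon, and the deposited tables give, per transcript, estimated counts (not normalized), TPM values and both the annotated and the effective length. The submitters' processing notes name STAR 2.7.6a, SAMtools 1.11, bedtools 2.29.2, Salmon 1.3.0 and DESeq2 1.28.1. TPM values deposited by the authors entered no comparison, and no table of the authors' own comparisons was used.

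GENCODE release 44 placed transcripts in genes by their identifier (225662 of 228754, and 3092 without an entry held 1.03% to 1.13% of the reads of a library). Estimated counts were summed per gene and rounded (60876 genes, 34232 with a read). Genes were kept by filterByExpr (minimum count 10), libraries were scaled by TMM, and all 14 entered one edgeR 4.0.16 quasi-likelihood fit (limma 3.58.1, R 4.3.3) with 7 groups. Benjamini-Hochberg adjustment ran over the 15426 genes tested. Contrasts were RBI2 minus CX-5461 under each label, each compound against the control, and the differences of the compound contrast between labels. With 2 libraries per group, totals of 14112299 to 24849354 reads set the counting error. A group without reads was given a floor of 3 counts, which covers counting error only. On simulated counts of this comparison, 92 of 100 genes changed by 1.5 on the log2 scale and 99 of 100 changed by 3 were recovered, with 4 false calls among 15194 genes tested. The changed genes were drawn only from those with a mean above 2 CPM over the 14 libraries, so recovery at lower levels was not tested.

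The comparison, the gene lists and the motifs were chosen with earlier results of these data known. The text names the 12 called genes that were highest and the 12 that were lowest with RBI2 by fold change, given no overlap and a mean of 5 CPM or more in one compound, every called member of a list of at most 25 genes, and GAPDH, PABPC1 and ATXN2. Other genes were named after their values were seen, as were the lists of SNHG hosts and of Wnt components. Lists are described by counts and medians with no set test. The alternatives were DESeq2 1.42.0 with and without the filter, its size factors, no filter, an unadjusted p, no limit on the fold change, an offset for transcript length, the replicate number as a block, a GC and length correction, those 2 in one fit, models of the 4 or the 12 treated libraries, and the omission of each library in turn.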

Additional observations from a re-analysis of the deposited data

Results flagged for a closer look

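The difference between RBI2 and CX-5461 under the label 10 min was not the same under the other labels for the genes below, by an interaction term in the same edgeR fit with Benjamini-Hochberg adjustment. It passed against the label 30 min for 122 genes and against 120 min for 651 genes, of 15426 tested. Both counts moved with single libraries, and that of 651 with the replicate number as a block (343), as given with the comparison of labels above.

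Values are the log2 fold change of RBI2 against CX-5461 under the label 10 min minus that under the other label. CCN1 had 2.72 against 30 min and 2.44 against 120 min, and PPP1R10 had 2.51 and 2.36. MIR222HG had 2.07 and 1.89, ID1 had 2.52 and 1.95, and MYC had 2.33 and 2.15. For EDN1 the values were 1.74 and 1.71, for ENSG00000290862 1.64 and 1.70, and for OSGIN1 1.69 and 1.5. For ID3 they were 1.98 and 1.63, and for ZNF792 1.66 and 1.66. These genes were all higher with RBI2 under the label 10 min, with adjusted p between 7.48e-08 (CCN1) and 0.022 (ZNF792).

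Among genes lower with RBI2, ID2 had -2.48 against 30 min and -1.04 against 120 min, FOSB had -2.37 and -2.05, TENT5A had -1.63 and -1.52, and NRARP had -1.68 and -1.47. NR4A2 passed against 30 min with -4.07 and RASD1 with -2.09. Against 120 min TNFSF9 passed with -1.21, NR4A1 with -1.45 and GCH1 with -1.09. ENSG00000262526 passed against 120 min with -11.44, a fitted value that rests on RBI2 libraries with 0 reads and is no bound. The smallest adjusted p of these was 5.16e-05 (ID2) and the largest 0.0471 (TNFSF9).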

How the results depend on the processing

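Of the 46 called genes that the naming rule chose, 31 kept their call in all 24 other settings, 15 lost it in at least 1, and 0 changed sign. The cause was not tested for any of these changes. The 160 genes called became 472 with the adjusted p alone, 471 with an unadjusted p under 0.05 and the same limit on the fold change, 398 with no filter on low counts, 258 with only the 4 libraries in the model and 104 with the offset for transcript length, which shared 94 with the 160. The 98 higher genes became 344, 291 and 212 under the first 3 of these and 63 with the offset, and the 62 lower genes became 128, 180 and 186, and then 114 with only the 4 libraries, 41 with the offset and 100 without the controls. Leaving out each library in turn gave 95 to 225 genes in all, 57 to 134 higher and 31 to 96 lower. Between RBI2 and CX-5461 under the label 10 min, libraries with the same replicate number did not deviate together (correlation -0.00738). Over all pairs of groups the correlation ran from -0.179 to 0.18, with both ends in pairs that hold the controls. With the replicate number as a block 154 genes were called, 94 higher and 60 lower, of which 146 were among the 160. The block gave 343 in place of 651 genes for the difference from the label 120 min. Leaving out each library gave 47 to 267 genes for the label 30 min and 66 to 2788 for 120 min. PABPC1, which was not called, changed from -0.19 to 0.21 with the offset. What depth adds to the error of low genes such as HEY1 and ARC was not tested.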

Other observations

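Further genes called between the compounds are given as values, picked out after their values were seen. Higher with RBI2 was CYP1B1, a target of the aryl hydrocarbon receptor, with a log2 fold change of 1.14 (adjusted p = 3.79e-04), and ARRDC3, an alpha-arrestin, had 1.14 (adjusted p = 3.79e-04). The inflammasome sensor NLRP3 had 1.01 (adjusted p = 0.00324).

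Lower with RBI2 was FAM53C at 65.1 ± 2.62 CPM with RBI2, 152 ± 0.978 with CX-5461 and 57.8 ± 3.89 in the controls (SD, n = 2), with -1.22 (adjusted p = 1.37e-05). The receptor FGFR3 had -1.05 (adjusted p = 0.00244), TFEB, a factor for lysosomal genes, had -1.24 (adjusted p = 0.0297), and DNAJB9, a chaperone of the endoplasmic reticulum, had -1.16 (adjusted p = 7.15e-04). The factor CEBPD had -1.04 (adjusted p = 0.00973), FOXC1 had -1.06 (adjusted p = 0.00753) and SIX2 had -1.03 (adjusted p = 0.0115).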
